A study of Mus musculus with 15 samples.

Results

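The genes of the standard proteasome were followed through RNA levels and N6-methyladenosine (m6A) peaks in MPC5, an immortalised mouse podocyte line. Members were the protein-coding genes whose symbol starts with Psma, Psmb, Psmc or Psmd and a number, without the immune and tissue-specific subunits Psmb8, Psmb9, Psmb10, Psmb11 and Psma8. The rule took 35 of the 25012 genes in the deposited RNA table. Of these, 34 encode the standard subunits and assembly chaperones of the proteasome. The other, Psmc3ip, is a meiotic recombination factor whose name begins like that of an ATPase, and it is described apart. All 35 passed the minimum of a mean FPKM of 1 over the 3 libraries, as did 11591 genes in all.

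The proteasome degrades proteins that carry ubiquitin chains. Its 20S core is a barrel of alpha rings, which gate the entrance, and beta rings, whose subunits Psmb5, Psmb6 and Psmb7 cut the protein chain. The 19S particle caps the barrel with an ATPase ring that unfolds substrates, a base with ubiquitin receptors, and a lid that removes the ubiquitin chain. Subunit genes are commonly transcribed in step, and the factor NRF1 (gene Nfe2l1) raises them together when the proteasome is inhibited.

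The 3 conditions were MPC5 cells that received an sh-METTL3 virus (an shRNA against METTL3) followed by 25 µmol/L glucose (unit as labelled) for 72 hours, cells with the virus but no added glucose, and control cells kept in standard medium. Each condition had 5 samples: 2 of input RNA, 2 of RNA captured by an m6A antibody, and 1 that named neither. The RNA table held 1 library for each condition, with 52807701 counts in the glucose library, 53655982 in the library labelled sh-METTL3, against 54282720 in the control. All samples carried the same batch label. Since control cells had no virus, effects of the virus and of the shRNA cannot be told apart, and glucose was not given without the virus. Mettl3, the m6A methyltransferase that the shRNA targets, had 2.49 FPKM with glucose, 2.42 FPKM in the library labelled sh-METTL3 and 2.34 FPKM in the control. It was thus not lower in the libraries labelled as knockdown, and no direction below is tied to a loss of METTL3. Of 15 podocyte markers 12 had a row and 8 reached 1 FPKM in each library, and together they had 217 FPKM with glucose, 204 FPKM in the sh-METTL3 library and 97.3 FPKM in the control. These markers did not share a direction. Nphs1, the gene of the slit protein nephrin, had 1.85, 1.37 and 3.35 FPKM in that order, and Synpo had 11.7, 8.59 and 1.19 FPKM. Actn4, the highest of the podocyte markers, had 104, 87.5 and 54.5 FPKM, and Wt1 stayed under 1 FPKM in each library. Of 10 tubular markers 4 reached 1 FPKM in each library, with sums of 87.7, 172 and 58.9 FPKM in that order, and the part of such differences in the results was not tested. With 1 library per condition no replicate spread exists, so no RNA difference was tested, and "higher" and "lower" describe these libraries. Where a ratio of count shares is given, the range after it is its 95% exact binomial interval, which covers counting error only because reads amplified by PCR were not told apart by molecule. In bulk RNA, fewer cells with a transcript and less of it per cell cannot be told apart.

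All 34 subunit and chaperone genes were expressed, and most stood high among all genes. Of the 35 members, 30 had a mean level among the highest 20% of tested genes, which began at 16.8 FPKM, and 18 among the highest 10%, which began at 32.2 FPKM. The median member had 32.4 FPKM over the 3 libraries, against 5.81 FPKM for all tested genes. Psmd8, a lid subunit, was the highest member on the mean of the libraries, with 93.6 FPKM with glucose, 57.7 FPKM in the library labelled sh-METTL3 and 121 FPKM in the control. Psmb2, Psmb4 and Psmd2 stood above it in the sh-METTL3 library. Psmd9, a chaperone of the 19S base, was the lowest on the mean of the libraries. It had 4.55 FPKM with glucose, 4.48 FPKM in the library labelled sh-METTL3 and 6.92 FPKM in the control. These values rest on an implied length of 11085 bp, beside a median of 4292 bp for the members. Its 3'UTR peaks in the glucose and control lists lay past the end of its deposited gene model. The part of that model in its rank was not tested. Among the 34 genes, chaperones included, the highest exceeded the lowest 20.6-fold in the glucose library. The same ratio was 14.1-fold in the library labelled sh-METTL3 and 23.1-fold in the control. In each library the lowest of them was a chaperone gene. The order of the 34 levels was kept between libraries, with Spearman's rho of 0.91 between glucose and control, 0.89 between sh-METTL3 and control and 0.96 between glucose and sh-METTL3. Over all 11591 tested genes the same measure was 0.88, 0.83 and 0.93. These are correlations across genes that share each library, and they are given as descriptions.

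**Figure D1:**
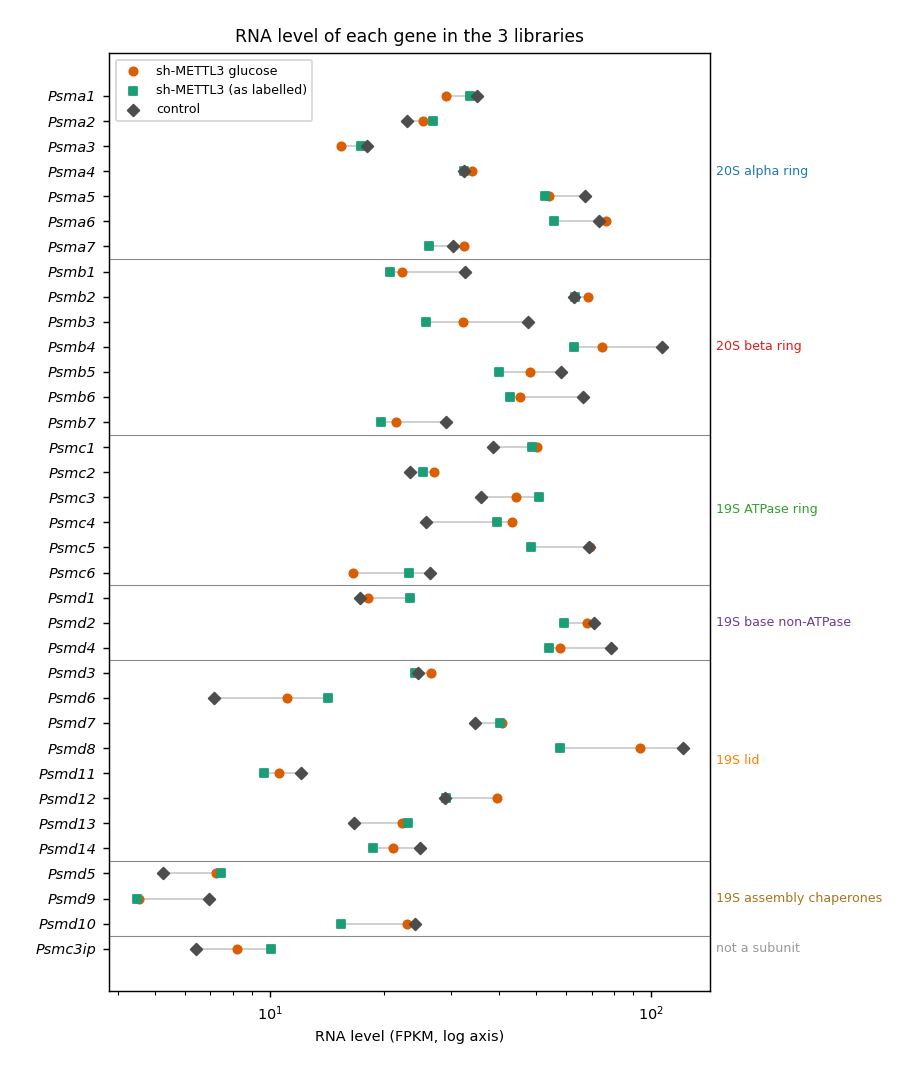
RNA level in FPKM (log axis) of the 35 genes, 1 row per gene grouped by role, with 1 point per library and a line over their range. Of the 7 beta-ring genes 6 had their highest level in the control, while Psmc1 to Psmc4 of the ATPase ring had their lowest there.

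Summed over the 34 genes, the RNA level was 1273 FPKM with glucose, 1136 FPKM in the library labelled sh-METTL3 and 1374 FPKM in the control. The members took 0.514% of all counts in the glucose library, 0.477% in the library labelled sh-METTL3, against 0.549% in the control. No member was at least 2-fold higher or lower on the log2(FPKM + 1) scale in the glucose library than in the control, whereas 8.25% of tested genes were called higher and 3.68% lower. In the library labelled sh-METTL3 against the control, 0 members were called higher and 1, Psmd8, lower, beside 11.4% and 8.01% of tested genes. Between the glucose library and the library labelled sh-METTL3 the members called were 0 and 0, beside 2.81% higher and 1.85% lower of all tested genes.

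Because the median gene was itself off 0, by 0.16, 0.10 and 0.06 on the log2 scale in these comparisons in turn, ratios are given below relative to it. On that scale the members' median was -0.14 for glucose over control, with 10 members above the median gene and 25 below it, where 50.0% of tested genes lie on each side by construction. It was -0.28 for sh-METTL3 over control, with 11 above and 24 below, again beside 50.0% each. It was 0.04 for glucose over sh-METTL3, with 21 above and 14 below, beside 50.0% each. These splits rest on the scaling: for glucose over control 19 were above and 16 below with quantile normalization, and 17 and 18 with no filter on low values. For sh-METTL3 over control the same settings gave 18 and 17, and 12 and 22. The first pair of comparisons shares the control library and is given side by side for that reason. Genes at these levels lay lower as a whole: the median of the 3859 genes averaging 10 FPKM or more was -0.22 for glucose over control, -0.23 for sh-METTL3 over control and 0.03 for glucose over sh-METTL3. Set against those medians instead, the members' median was 0.08, -0.04 and 0.01, with 19, 17 and 20 members above 0. The list as a whole thus lay within 0.08 of the median of genes averaging 10 FPKM or more. Higher backgrounds lay further down against the control. The highest 20% of tested genes by mean level, with 30 of the members, had medians of -0.31, -0.36 and 0.05. The highest 10%, with 18 of the members, had medians of -0.47, -0.59 and 0.11. The distance of the list thus depends on the background chosen, and the part of RNA level in it was not tested. The parts of the complex differed among themselves.

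**Figure D2:**
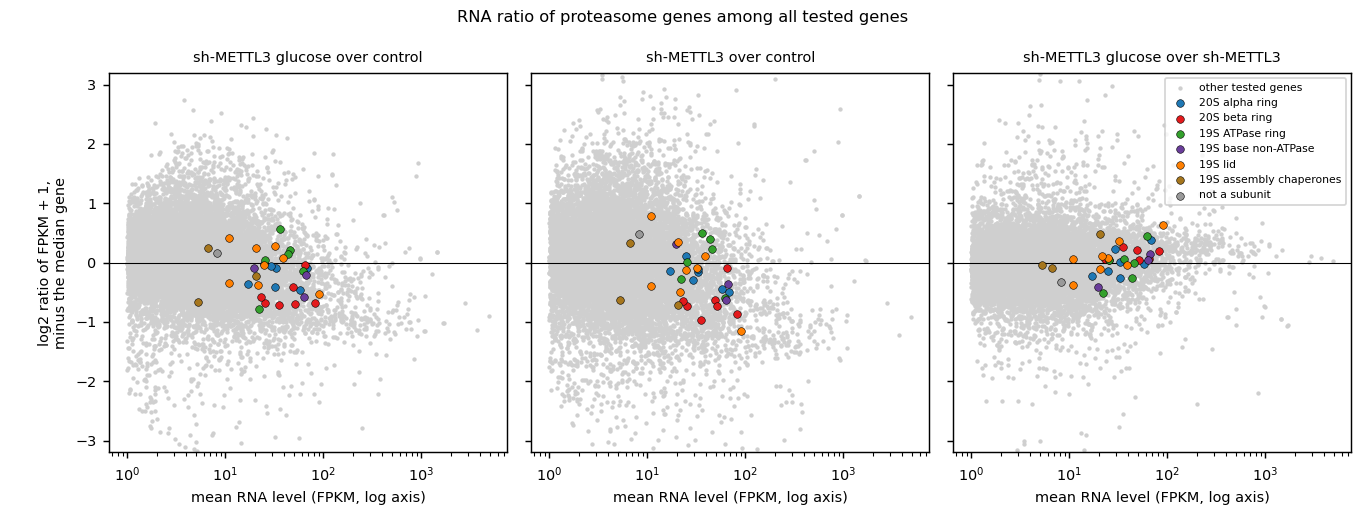
Log2 ratio of FPKM + 1 minus the median gene (y axis) against the mean RNA level in FPKM (log x axis) for the 11591 tested genes in grey and the 35 members in colour by role, 1 panel per comparison. The beta-ring genes lie below 0 in both comparisons with the control and near 0 between the glucose and sh-METTL3 libraries; 28, 39 and 15 genes lie beyond the y axis in the 3 panels.

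The beta ring of the core was the part of the complex with the lowest median against the control. All 7 genes were below the median gene in both comparisons with the control, with a median relative log2 ratio of -0.68 for glucose over control and -0.73 for sh-METTL3 over control. Their summed level was 312 FPKM with glucose, 274 FPKM in the library labelled sh-METTL3 and 404 FPKM in the control. Psmb4, a structural beta subunit, had 74.4 FPKM with glucose, 62.7 FPKM in the library labelled sh-METTL3 and 107 FPKM in the control. Its share of counts relative to the control was 0.700 in the glucose library (0.683 to 0.716) and 0.595 in the library labelled sh-METTL3 (0.581 to 0.610). Psmb3, another structural subunit, had 32.1 FPKM with glucose, 25.7 FPKM in the library labelled sh-METTL3 and 47.6 FPKM in the control, and was the lowest of the ring in both comparisons, at -0.71 and -0.97. Psmb2 was the exception, with 68.5 FPKM with glucose, 63.2 FPKM in the library labelled sh-METTL3 and 63.0 FPKM in the control, and relative ratios of -0.04 and -0.10. With quantile normalization the ring's medians were -0.27 and -0.37, with Psmb2 above 0 in both and the other 6 genes below. The assembly chaperones then had the lower median for sh-METTL3 over control, at -0.55. Relative to genes averaging 10 FPKM or more the ring's medians were -0.45 and -0.50, with Psmb2 alone above 0. The highest 10% of tested genes by mean level had medians of -0.47 and -0.59 against the median gene. The part of RNA level in the ring's values was not tested.

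The catalytic subunits were all below the control. Psmb5, the chymotrypsin-like subunit, had 48.3 FPKM with glucose, 39.9 FPKM in the library labelled sh-METTL3 and 58.0 FPKM in the control. Psmb6, the caspase-like subunit, had 45.5 FPKM with glucose, 42.6 FPKM in the library labelled sh-METTL3 and 66.4 FPKM in the control. Psmb7, the trypsin-like subunit, had 21.4 FPKM with glucose, 19.6 FPKM in the library labelled sh-METTL3 and 29.0 FPKM in the control. The control was the highest of the 3 libraries for each of them, and the library labelled sh-METTL3 the lowest. Between the glucose library and the library labelled sh-METTL3, all 7 beta genes lay above the median gene, by 0.04 to 0.25, with Psmb3 the highest and a median of 0.06.

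The alpha ring differed less. Its 7 genes had a median of -0.10 for glucose over control, with 0 above the median gene, and -0.16 for sh-METTL3 over control, with 1 above. These sides depend on the scaling: for glucose over control 4 of the 7 (Psma2, Psma4, Psma6 and Psma7) were above 0 with no filter on low values, with quantile normalization and relative to genes averaging 10 FPKM or more, where the medians were 0.03, 0.19 and 0.12. Psma2, the highest in both, had 25.3 FPKM with glucose, 26.9 FPKM in the library labelled sh-METTL3 and 23.0 FPKM in the control, which put it at -0.03 and 0.11. Psma5 was the lowest for glucose over control, at -0.46, with 54.2 FPKM with glucose, 52.7 FPKM in the library labelled sh-METTL3 and 67.0 FPKM in the control. Its values carry some uncertainty, since the pseudogene copy Psma5-ps was listed with 467, 529 and 511 counts in the same order of libraries, beside 5819, 5800 and 7340 for Psma5. Psma6 had 76.2 FPKM with glucose, 55.7 FPKM in the library labelled sh-METTL3 and 73.1 FPKM in the control, so that the library labelled sh-METTL3 alone was low. It was the lowest of the ring for sh-METTL3 over control, at -0.49, and the highest for glucose over sh-METTL3, at 0.39. Psma1, the lowest there at -0.26, had 29.1 FPKM with glucose, 33.5 FPKM in the library labelled sh-METTL3 and 35.0 FPKM in the control.

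The ATPase ring of the 19S particle lay close to the median gene. Of its 6 genes, 4 were above the median gene in both comparisons with the control, beside 50.0% of tested genes by construction. Psmc5 and Psmc6 were below it. The ring's medians were 0.09 for glucose over control and 0.12 for sh-METTL3 over control. Under the other settings 3 to 5 of the 6 genes were above the median gene and the medians stayed above 0. Their summed level was 251 FPKM with glucose, 236 FPKM in the library labelled sh-METTL3 and 219 FPKM in the control, so it was highest with glucose and lowest in the control. Psmc4, the highest of the ring in both, had 43.1 FPKM with glucose, 39.5 FPKM in the library labelled sh-METTL3 and 25.7 FPKM in the control. Its share of counts relative to the control was 1.69 in the glucose library (1.63 to 1.75) and 1.56 in the library labelled sh-METTL3 (1.51 to 1.62). Psmc3 had 44.2 FPKM with glucose, 51.0 FPKM in the library labelled sh-METTL3 and 35.9 FPKM in the control. Psmc6 went the other way and was the lowest subunit gene of all for glucose over control, at -0.79, with 16.6 FPKM with glucose, 23.2 FPKM in the library labelled sh-METTL3 and 26.3 FPKM in the control. It was also the lowest for glucose over sh-METTL3, at -0.52. Psmc5 had 69.4 FPKM with glucose, 48.6 FPKM in the library labelled sh-METTL3 and 68.7 FPKM in the control. It was the lowest of the ring for sh-METTL3 over control, at -0.59, and the highest for glucose over sh-METTL3, at 0.45.

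The non-ATPase base subunits Psmd1, Psmd2 and Psmd4, which form the scaffold and the ubiquitin receptor, were below the median gene for glucose over control, with a median of -0.22, and had a median of -0.36 for sh-METTL3 over control. Psmd4, a ubiquitin receptor, was the lowest in both, at -0.59 and -0.63, with 57.9 FPKM with glucose, 54.0 FPKM in the library labelled sh-METTL3 and 78.5 FPKM in the control. Psmd2 was the highest for glucose over sh-METTL3, at 0.14, with 68.0 FPKM with glucose, 59.1 FPKM in the library labelled sh-METTL3 and 70.9 FPKM in the control. Psmd1 had 18.1 FPKM with glucose, 23.4 FPKM in the library labelled sh-METTL3 and 17.3 FPKM in the control, so the library labelled sh-METTL3 alone was high. It was the highest of the 3 against the control, at -0.09 and 0.31, and the lowest for glucose over sh-METTL3, at -0.41.

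The lid held the lowest and the highest member for sh-METTL3 over control. Psmd8 had 57.7 FPKM in the library labelled sh-METTL3, against 121 FPKM in the control, a relative log2 ratio of -1.16 and a share ratio of 0.484 (0.475 to 0.494). The glucose library, with 93.6 FPKM, lay between them, at -0.53 against the control and 0.63 against sh-METTL3, where Psmd8 was the highest of all members. Psmd6 was the highest member for sh-METTL3 over control, at 0.79, with 11.1 FPKM with glucose, 14.2 FPKM in the library labelled sh-METTL3 and 7.16 FPKM in the control. Its share of counts relative to the control was 2.01 in the library labelled sh-METTL3 (1.90 to 2.13), while its ratio on the log2(FPKM + 1) scale, which understates the change of low genes, fell short of 2-fold. Both genes encode scaffold subunits of the same lid, and they lay at opposite ends of the list. Psmd6 was the highest of the lid for glucose over control too, at 0.41, and the lowest for glucose over sh-METTL3, at -0.38. Psmd12 had 39.4 FPKM with glucose, 29.1 FPKM in the library labelled sh-METTL3 and 28.8 FPKM in the control, so the glucose library alone was high. Psmd14, the deubiquitinase of the lid, had 21.1 FPKM with glucose, 18.7 FPKM in the library labelled sh-METTL3 and 24.8 FPKM in the control. Over the 8 lid genes the median was 0.01 for glucose over control, -0.11 for sh-METTL3 over control and 0.07 for glucose over sh-METTL3.

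The assembly chaperones Psmd5, Psmd9 and Psmd10, which bind the ATPases before the 19S base is complete, differed among themselves. Psmd5 had 7.24 FPKM with glucose, 7.44 FPKM in the library labelled sh-METTL3 and 5.26 FPKM in the control, and lay above the median gene in both comparisons with the control, at 0.24 and 0.33. For glucose over sh-METTL3 it was the lowest of the 3 chaperone genes, at -0.09. Psmd9 was the lowest for glucose over control, at -0.67, and lay at -0.04 for glucose over sh-METTL3. Psmd10, known also as gankyrin, had 22.9 FPKM with glucose, 15.4 FPKM in the library labelled sh-METTL3 and 24.1 FPKM in the control, so the library labelled sh-METTL3 alone was low. It was the lowest for sh-METTL3 over control, at -0.71, and the highest for glucose over sh-METTL3, at 0.49. Psmc3ip, which is not a subunit, had 8.23 FPKM with glucose, 10.1 FPKM in the library labelled sh-METTL3 and 6.41 FPKM in the control.

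Gene length moved with the RNA ratios over all genes, so it is given beside the results on the beta ring. The length implied by the counts and FPKM had a Spearman's rho of 0.40 with the relative ratio of glucose over control and 0.42 with that of sh-METTL3 over control, across 11591 genes that share the libraries. Genes were split by length into 10 classes of about equal number. In the shortest class, up to 1122 bp, the median relative ratio was -0.65 for glucose over control and -0.70 for sh-METTL3 over control. In the longest class, from 14132 bp, it was 0.29 and 0.45. The median length was 2982 bp in the beta ring, 4512 bp in the alpha ring and 3646 bp in the ATPase ring. The class from 2432 to 3712 bp, which held Psmb3, Psmb4 and Psmb6 as well as Psmc1 and Psmc4, had a median of -0.19 for glucose over control and -0.26 for sh-METTL3 over control. Psmb1, of 7022 bp, lay at -0.69 and -0.73, where the class that held it had medians of 0.02 and -0.01. Psmb2, of 1841 bp, lay at -0.04 and -0.10, where its class had medians of -0.37 and -0.47. Within the class from 2432 to 3712 bp, Psmb3, Psmb4 and Psmb6 lay below the median gene and Psmc1 and Psmc4 above it. The part of length in the list's values was not tested.

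**Figure D3:**
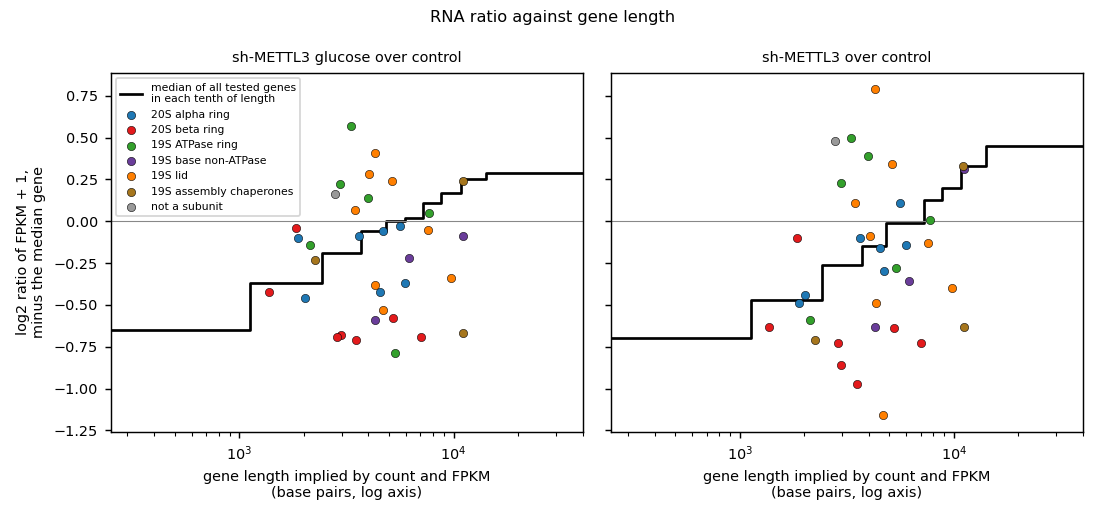
Log2 ratio of FPKM + 1 minus the median gene (y axis) against the gene length implied by count and FPKM (base pairs, log x axis), with the members as points coloured by role and the median of all tested genes in each of 10 length classes as a black line. Left is glucose over control and right sh-METTL3 over control; 6 of the 7 beta-ring points lie below the line in both panels, and Psmb2 lies above it.

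Against the library labelled sh-METTL3, the immune subunits that replace the catalytic ones differed more than any member. Psmb8, which takes the place of Psmb5, had 28.6 FPKM with glucose, 6.37 FPKM in the library labelled sh-METTL3 and 46.6 FPKM in the control. Psmb9, which takes the place of Psmb6, had 6.20 FPKM with glucose, 1.26 FPKM in the library labelled sh-METTL3 and 6.02 FPKM in the control. Psmb10, which takes the place of Psmb7, had 14.0 FPKM with glucose, 6.69 FPKM in the library labelled sh-METTL3 and 18.4 FPKM in the control. On the log2(FPKM + 1) scale, all 3 were over 2-fold lower in the library labelled sh-METTL3 than in the control. On that scale Psmb8 and Psmb9 were over 2-fold higher in the glucose library than in the library labelled sh-METTL3. Psmb10 fell short of 2-fold there, while its share of counts relative to the library labelled sh-METTL3 was 2.07 (1.91 to 2.23). Per length, the ratio of Psmb8 to Psmb5 was 0.592 in the glucose library, 0.159 in the library labelled sh-METTL3, against 0.804 in the control. The ratio of Psmb9 to Psmb6 was 0.136 in the glucose library, 0.0295 in the library labelled sh-METTL3, against 0.0907 in the control. The ratio of Psmb10 to Psmb7 was 0.653 in the glucose library, 0.341 in the library labelled sh-METTL3, against 0.637 in the control. The library labelled sh-METTL3 was thus the lowest of the 3 for each pair.

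The genes around the proteasome were read from lists of its partners. Psme1 and Psme2, the subunits of the PA28 activator that opens the core, were likewise lowest in the library labelled sh-METTL3. Psme1 had 45.8 FPKM with glucose, 29.1 FPKM in the library labelled sh-METTL3 and 58.9 FPKM in the control. Psme2 had 48.4 FPKM with glucose, 24.8 FPKM in the library labelled sh-METTL3 and 74.1 FPKM in the control, and it was the 1 of 5 activator and inhibitor genes called lower for sh-METTL3 over control. Psme4, which encodes the PA200 activator, had 7.66 FPKM with glucose, 11.7 FPKM in the library labelled sh-METTL3 and 6.75 FPKM in the control, and was highest where Psme2 was lowest. Of the 5 assembly factors of the 20S core 0 were called in any comparison; Psmg4 was the lowest, at -1.06 relative to the median gene for sh-METTL3 over control. Of 8 other subunits and associated factors 0 were called. Ublcp1, a phosphatase of the proteasome, was the highest for sh-METTL3 over control, at 0.69, and Sem1, a small lid subunit, the lowest, at -0.47.

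Of 7 genes around NRF1, 6 were tested, and 1, Nfe2l2, was called higher in both comparisons with the control. Nfe2l2, which encodes the related factor NRF2, had 14.3 FPKM with glucose, 15.1 FPKM in the library labelled sh-METTL3 and 6.39 FPKM in the control. Nfe2l1 itself had 40.6 FPKM with glucose, 41.3 FPKM in the library labelled sh-METTL3 and 35.1 FPKM in the control. Ddi2, the protease that activates NRF1, had 7.28 FPKM with glucose, 5.97 FPKM in the library labelled sh-METTL3 and 3.72 FPKM in the control. Of 13 tested genes for ubiquitin, its activating enzymes and shuttle factors, 1 (Uba6) was called higher and 2 (Ubb and Rps27a) lower for sh-METTL3 over control. Uba6, a ubiquitin-activating enzyme, had 3.62 FPKM with glucose, 6.81 FPKM in the library labelled sh-METTL3 and 2.25 FPKM in the control, so the library labelled sh-METTL3 was the highest.

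Other large complexes gave lower medians than the -0.14 and -0.28 of the proteasome list, except the COP9 signalosome for sh-METTL3 over control. The 8 genes of the CCT chaperonin, which folds actin and tubulin, had a median of -0.49 for glucose over control and -0.60 for sh-METTL3 over control, with 0 above the median gene in either. The 10 genes of the COP9 signalosome, a relative of the lid, had medians of -0.34 and -0.23. The 77 cytosolic ribosomal protein genes had medians of -1.03 and -1.33, with 17 and 66 called lower. The 78 tested nuclear genes of the respiratory chain had medians of -0.51 and -0.49. These medians are descriptions, and the difference between lists was not tested.

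The promoter windows of the 2 subunit genes lowest and the 2 highest for sh-METTL3 over control are shown because they carry the extremes of the RNA result. They are the 250 bases before the RefSeq start on build GRCm38.p6, read on the gene's strand. Psmd8 is at chr7:29180674-29180923 on the minus strand, Psmb3 at chr11:97703184-97703433 on the plus strand, Psmd6 at chr14:14120946-14121195 on the minus strand and Psmc4 at chr7:28050093-28050342 on the minus strand. The last 35 bases of the Psmb3 window, 39 of the Psmd6 window and 9 of the Psmc4 window lie inside the gene model of the deposited files, whose starts differ from those of RefSeq. Capitals mark matches, on either strand, to CGGAAG, the core that ETS factors bind, and to TGACNNNGC or TGAGNNNGC, forms of the antioxidant response element core that NRF1 and NRF2 bind.
Psmd8: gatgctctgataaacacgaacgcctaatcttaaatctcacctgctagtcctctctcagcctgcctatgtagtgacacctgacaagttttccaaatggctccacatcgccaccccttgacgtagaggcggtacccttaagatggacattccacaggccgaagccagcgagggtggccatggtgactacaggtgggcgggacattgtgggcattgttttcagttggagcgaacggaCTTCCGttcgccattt
Psmb3: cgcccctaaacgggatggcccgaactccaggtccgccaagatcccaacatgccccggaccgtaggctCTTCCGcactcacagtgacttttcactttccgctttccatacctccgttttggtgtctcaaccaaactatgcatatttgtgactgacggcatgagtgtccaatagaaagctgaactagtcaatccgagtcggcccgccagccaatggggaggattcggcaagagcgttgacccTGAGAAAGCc
Psmd6: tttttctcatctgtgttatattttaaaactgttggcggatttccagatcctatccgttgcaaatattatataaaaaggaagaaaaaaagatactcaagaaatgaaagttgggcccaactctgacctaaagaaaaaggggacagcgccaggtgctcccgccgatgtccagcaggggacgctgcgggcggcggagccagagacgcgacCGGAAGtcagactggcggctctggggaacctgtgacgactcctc
Psmc4: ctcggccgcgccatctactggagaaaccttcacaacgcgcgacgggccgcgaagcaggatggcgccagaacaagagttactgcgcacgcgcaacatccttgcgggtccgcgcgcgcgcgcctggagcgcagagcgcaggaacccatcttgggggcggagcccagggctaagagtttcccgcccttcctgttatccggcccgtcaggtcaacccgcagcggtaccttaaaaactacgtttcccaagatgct

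Psmd8 and Psmd6, at opposite ends of the list, each held 1 match to CGGAAG and none to the antioxidant element, Psmb3 held a match to CGGAAG and 1 to TGAGNNNGC, and Psmc4 held none of these. Windows were found for 28 of the 34 subunit and chaperone genes, and 11 motifs were searched in them on both strands. CGGAAG was in 15 of the 28 (53.6%), beside 31.7% of 7862 tested protein-coding genes and 15.3% of all 27025 symbols with a window. CCGGAAGT, which contains it, was in 4 of 28 (14.3%), beside 7.62% of tested protein-coding genes. TGACNNNGC was in 5 of 28 (17.9%), beside 14.0%, and TGAGNNNGC in 8 of 28 (28.6%), beside 19.4%. Among the catalytic subunits with a window, Psmb5 and Psmb6 both held TGACNNNGC. GGCGG, a core that Sp1-like factors bind, was in 26 of 28 (92.9%), beside 84.8%, and the TATA-like TATAAA in 3 of 28 (10.7%), beside 7.00%. A match describes letters in the window, and the share of CGGAAG was picked out after 11 motifs had been compared.

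m6A peaks lay in most members. An adjusted p under 0.05 was required of each deposited peak, as the authors' caller gave it for pulled-down over input RNA. The glucose list had 43 such peaks in 31 of 35 members (88.6%), beside 75.3% of tested genes. The list labelled sh-METTL3 had 30 peaks in 21 members (60.0%), beside 69.4%, and the control list had 27 peaks in 21 members (60.0%), beside 67.8%. Among genes averaging 10 FPKM or more, the shares with a peak were 75.9%, 65.8% and 64.8% in the same order. The members' share was thus above both backgrounds in the glucose list and close to that of genes averaging 10 FPKM or more in the other lists. Over every deposited peak it was 91.4%, 65.7% and 65.7%, beside 77.8%, 67.5% and 66.6% of those genes. The glucose list was also the longest, with 22423 peaks at this threshold, against 20741 for sh-METTL3 and 18956 for the control. Where 4-fold enrichment or more was required together with an adjusted p under 0.001, the members with a peak numbered 8, 3 and 4, which was 22.9%, 8.57% and 11.4% of them, beside 51.9%, 49.9% and 48.3% of tested genes.

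The same 20 members had a peak in all 3 lists, among them Psma3, Psma4, Psmb1 and Psmb7 of the core and Psmc1, Psmc2, Psmc5 and Psmc6 of the ATPase ring. In the glucose list alone 9 members had one: Psma1, Psma5, Psma6, Psma7, Psmb3, Psmb4, Psmc3, Psmc4 and Psmd14. They were 25.7% of the members, beside 5.82% of tested genes and 8.32% of genes averaging 10 FPKM or more with a peak in that list alone. Psmd10 had one in the glucose and sh-METTL3 lists, and Psmb5 in the glucose and control lists. Psma2, Psmb2, Psmb6 and Psmd6 had none. Of the 9 members in the glucose list alone, only Psma6 and Psmb4 had a differential peak, described below, for glucose over control. Psma7 and Psmb3 also had a deposited peak in the sh-METTL3 list that missed the threshold. By role, the alpha ring had a peak in 6 of 7 genes in the glucose list and in 2 of 7 in each of the other lists. The beta ring had a peak in 5 of 7 genes in the glucose list, 2 in the list labelled sh-METTL3 and 3 in the control list. Of 8 lid genes, 7 had a peak in the glucose list, 6 in the list labelled sh-METTL3 and 6 in the control list. Counted by peaks that overlap by at least 1 base, 26 of the 43 glucose peaks (60.5%) were found in the list labelled sh-METTL3 and 25 (58.1%) in the control list, beside 75.1% and 71.0% of all glucose peaks. In the other direction, 28 of the 30 sh-METTL3 peaks (93.3%) and 26 of the 27 control peaks (96.3%) were found in the glucose list, beside 83.7% and 83.5% of all peaks of those lists. Where the overlap had to cover at least 50% of each peak, these 4 shares were 48.8%, 44.2%, 70.0% and 70.4% for members, beside 50.8%, 48.2%, 55.0% and 57.1% for all peaks.

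**Figure D4:**
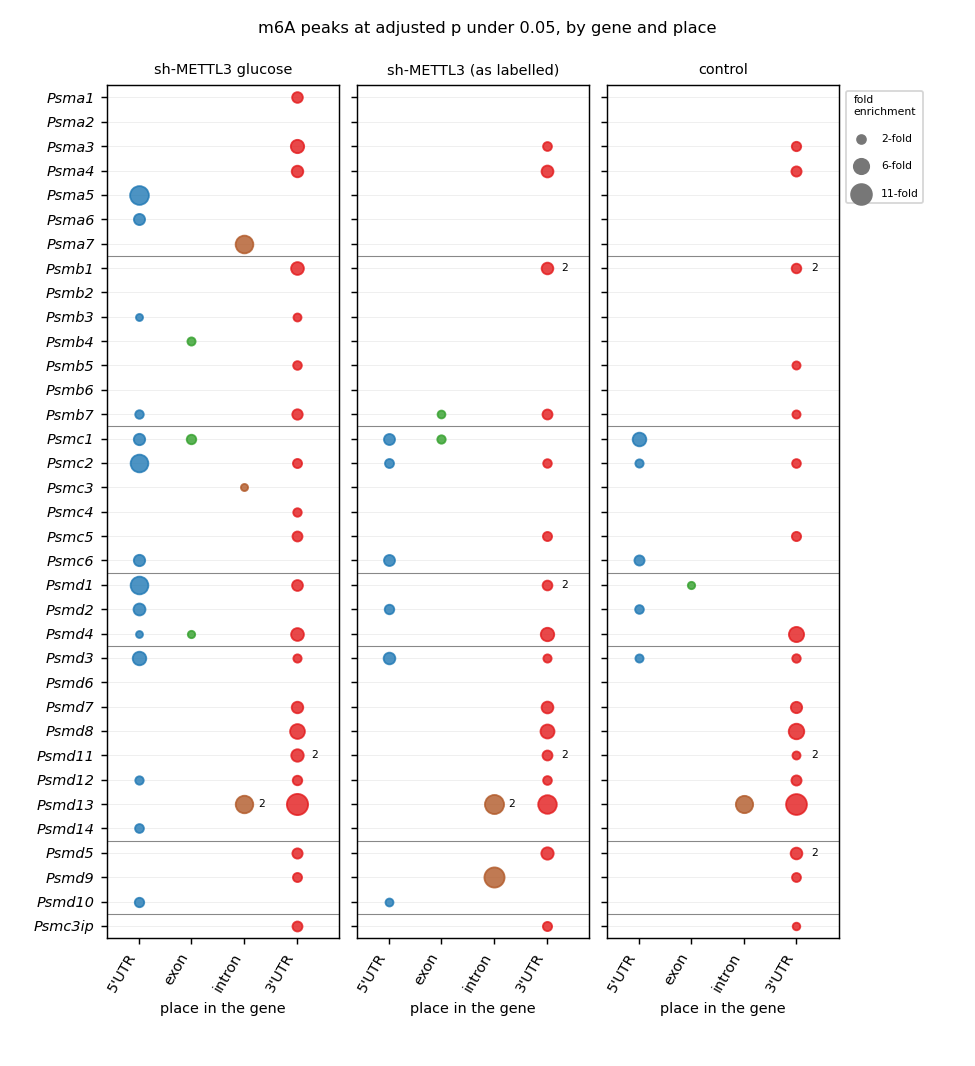
m6A peaks at an adjusted p under 0.05 in each of the 35 genes (rows, grouped by role) by the annotated place in the gene (x axis), 1 panel per condition; the area of a point follows the authors' fold enrichment of the strongest peak there, and a number gives the peaks where there are more than 1. The glucose panel holds 43 peaks, of which 14 are in the 5'UTR, against 6 of 30 in the sh-METTL3 panel and 5 of 27 in the control panel.

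Most member peaks were in the 3'UTR, where m6A is commonly found near the stop codon. The annotation put 22 of 43 peaks there in the glucose list (51.2%), 19 of 30 in the list labelled sh-METTL3 (63.3%) and 20 of 27 in the control list (74.1%), beside 52.6%, 53.4% and 54.9% of all peaks in those lists. The 5'UTR held 14 of 43 (32.6%), 6 of 30 (20%) and 5 of 27 (18.5%), beside 17.1%, 14.6% and 14.4% of all peaks. Exons outside the UTRs held 3 of 43 (6.98%), 2 of 30 (6.67%) and 1 of 27 (3.70%), beside 19.8%, 21.7% and 19.8%. Introns held 4 of 43 (9.30%), 3 of 30 (10%) and 1 of 27 (3.70%), beside 3.93%, 2.38% and 2.58%. The members' shares in the 5'UTR and in introns were above those of all peaks in each list, on few peaks, and their share in other exons was below. Several peaks run over introns: 12, 10 and 5 of them have ends over 1 kb apart, so the annotated place is that of the authors' table for the whole span.

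Member peaks were weak within their lists. The median fold enrichment was 2.79 in the glucose list, 2.51 in the list labelled sh-METTL3 and 2.19 in the control list, where all peaks of those lists had medians of 5.03, 5.75 and 6.30. Of the member peaks, 7 of 43, 3 of 30 and 2 of 27 exceeded the list's median. Fold enrichment was lower in well-expressed genes as a whole: for genes averaging 30 FPKM or more the medians were 2.79, 3.12 and 2.93. Psmd13, a scaffold subunit of the lid, held the strongest member peak of the glucose and control lists, in its 3'UTR at chr7:140898225-140898553 in the glucose list, with 11.5-fold enrichment there, 8.84-fold in the list labelled sh-METTL3 and 11.1-fold in the control list. By fold enrichment it ranked 3190 of 27480 deposited peaks in the glucose list, 6749 of 24626 in the sh-METTL3 list and 4912 of 22498 in the control list. An intronic peak of Psmd13 had 7.88-fold enrichment in the glucose list, 9.36-fold in the sh-METTL3 list and 7.65-fold in the control list. The strongest of the sh-METTL3 list by fold enrichment was an intronic peak of Psmd9, with 10.4-fold enrichment. Psma5 had a 5'UTR peak in the glucose list alone, with 9.05-fold enrichment. Both were near the threshold, with log10 adjusted p of -1.67 and -1.41 from the authors' caller. The 3'UTR peak of Psmd13 had -41.7 in the glucose list. Psma7 (intron), Psmc2 and Psmd1 (both 5'UTR) followed Psma5 with the same enrichment of 8.05, which 346 peaks of the glucose list share. Psmd8 had a 3'UTR peak in each list, with 5.63-fold enrichment in the glucose list, 5.01-fold in the sh-METTL3 list and 6.19-fold in the control list. Psmd6, at the other end of the RNA list, had only an intronic peak at an adjusted p above 0.05, in the glucose and control lists.

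Differential peaks in members were nearly all higher in the glucose condition. In the authors' deposited table of glucose over control, 25 peaks in 19 members had an adjusted p under 0.05, and 24 of the 25 were higher. By gene, 18 of 35 members (51.4%) had a higher peak there, beside 22.6% of tested genes and 36.7% of genes averaging 10 FPKM or more. A lower peak was in 1 member, Psmd5, beside 19.5% of tested genes. Over the whole table at that threshold 3620 of 6517 peaks (55.5%) were higher. In the authors' deposited table of sh-METTL3 over control, 9 peaks in 8 members (22.9%) had an adjusted p under 0.05, all of them higher, beside 10.8% of tested genes with a higher peak and 18.5% of genes averaging 10 FPKM or more. No member had a lower peak, beside 3.63% of tested genes, and 1527 of the table's 2007 peaks (76.1%) were higher. In the authors' deposited table of glucose against sh-METTL3, with its signs turned, 9 peaks in 9 members had an adjusted p under 0.05. A higher peak was in 8 members (22.9%), beside 10.8% of tested genes and 18.7% of genes averaging 10 FPKM or more. A lower peak was in 1 member, beside 12.7%, while 1520 of the table's 3332 peaks (45.6%) were higher. The member peaks thus leaned to higher in the last table, where the table as a whole leaned to lower, and no test of that difference was made.

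**Figure D5:**
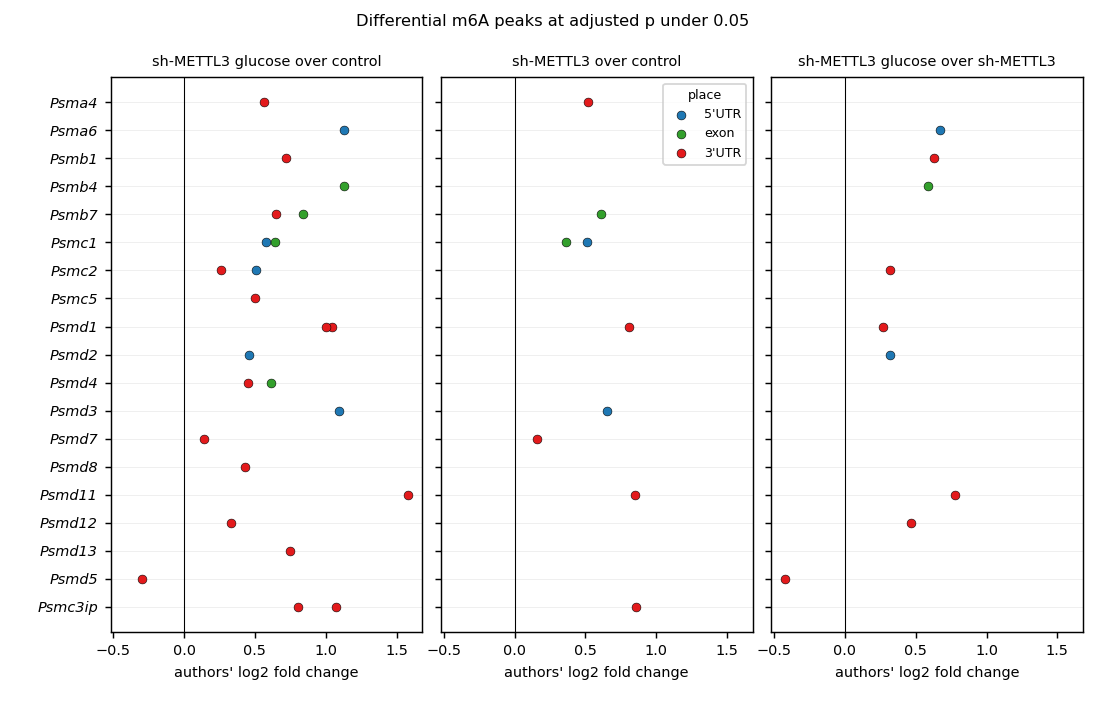
The authors' log2 fold change (x axis) of each differential m6A peak at an adjusted p under 0.05 in the 19 members that have one (rows), coloured by annotated place, 1 panel per comparison. All points lie above 0 except the 3'UTR peak of Psmd5 in the glucose over control and the glucose over sh-METTL3 panels.

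The largest difference was in Psmd11, a scaffold subunit of the lid. Its 3'UTR peak at chr11:80471810-80472229 had a log2 fold change of 1.58 for glucose over control (adjusted p 2e-31) in the authors' deposited table. The same place had 0.85 for sh-METTL3 over control (adjusted p 7.24e-06) and 0.78 for glucose over sh-METTL3 (adjusted p 3.16e-10) in the authors' deposited tables. The RNA of Psmd11 had 10.6 FPKM with glucose, 9.69 FPKM in the library labelled sh-METTL3 and 12.1 FPKM in the control. The peak was thus higher with glucose in both tables that compare the glucose condition, while the RNA was highest in the control.

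In the core, the authors' deposited table of glucose over control gave log2 fold changes of 1.13 for the 5'UTR peak of Psma6 and for the exonic peak of Psmb4, 0.56 for the 3'UTR peak of Psma4 and 0.72 for that of Psmb1. Psmb7 had 0.65 in its 3'UTR and 0.84 in an exon in the authors' deposited table of the same comparison. In the authors' deposited table of sh-METTL3 over control, Psma4 had 0.52 and the exonic peak of Psmb7 0.61. The authors' deposited table for glucose over sh-METTL3, turned, gave 0.67 for Psma6, 0.63 for Psmb1 and 0.59 for Psmb4. Psmb4, Psmb1 and Psmb7 thus had a higher peak with glucose beside RNA that was lower than in the control. The exonic peak of Psmb7 was higher without added glucose too, beside RNA at -0.64 for sh-METTL3 over control.

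In the ATPase ring, the authors' deposited table of glucose over control gave 0.58 for the 5'UTR peak of Psmc1 and 0.64 for its exonic peak, 0.51 for the 5'UTR peak of Psmc2, 0.26 for its 3'UTR peak and 0.50 for the 3'UTR peak of Psmc5. Psmc1 had 0.51 and 0.36 for sh-METTL3 over control, and Psmc2 had 0.32 in its 3'UTR for glucose over sh-METTL3, in the authors' deposited tables. Of the base, Psmd1 had 1.04 and 1.00 at a pair of 3'UTR peaks, Psmd2 0.46 in its 5'UTR, and Psmd4 0.45 in its 3'UTR and 0.61 in an exon, for glucose over control in the authors' deposited table. Psmd1 also had 0.81 for sh-METTL3 over control and 0.27 for glucose over sh-METTL3 in the authors' deposited tables, and Psmd2 had 0.32 in the last of these. Psmd1, whose protein is a scaffold of the base, was the member with the smallest adjusted p, 1e-36, in the authors' deposited table of glucose over control.

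In the lid, the authors' deposited table of glucose over control gave 1.09 for the 5'UTR peak of Psmd3, 0.75 for the 3'UTR peak of Psmd13, 0.43 for that of Psmd8, 0.33 for that of Psmd12 and 0.14 for that of Psmd7. Psmd3 had 0.65 and Psmd7 0.16 for sh-METTL3 over control, and Psmd12 had 0.47 for glucose over sh-METTL3, in the authors' deposited tables. The chaperone gene Psmd5 was the member that went down, with -0.30 in its 3'UTR for glucose over control (adjusted p 0.00263) and -0.42 for glucose over sh-METTL3 (adjusted p 5.89e-05) in the authors' deposited tables. Psmc3ip, which is not a subunit, had 0.80 and 1.07 at its 3'UTR peaks for glucose over control and 0.86 for sh-METTL3 over control in the authors' deposited tables.

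The comparisons of glucose and of sh-METTL3 with the control use the same control samples, so their peak differences are not independent. For glucose over control, 91.3% of all checked peaks shared their sign with the ratio of fold enrichments. The 5'UTR peak of Psmc1 did not, with 3.32-fold in the glucose list against 4.78-fold for a longer peak in the control list. Its exonic peak, which overlaps the same control peak, had 2.34-fold in the glucose list and did not either. Nor did the 3'UTR peaks of Psmd4 (4.21 against 5.89), Psmd8 (5.63 against 6.19) and Psmd12 (2.33 against 2.64). In the sh-METTL3 list the 5'UTR and exonic peaks of Psmc1 had 3.12-fold and 1.82-fold, also below the control list. The RNA of members with a higher peak lay on either side of the median gene. For glucose over control, 6 of these 18 members had RNA above the median gene and 12 below it, with a median of -0.10. For sh-METTL3 over control 4 of 8 were above it, with a median of 0.00, and for glucose over sh-METTL3 7 of 8 were above it, with a median of 0.10. The m6A tables do not give the RNA level that each ratio was set against, so the part of RNA level in the peak differences was not tested.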

How the data were processed

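Per the labels, poly(A) RNA was cut into fragments, an m6A antibody captured part of it, and the libraries, which keep strand, were read from both ends. The tools in the submitters' processing notes are fastp 0.19.4, StringTie 2.1.2, HISAT2 2.0.4, HOMER 4.10 and edgeR 4.1, with no roles stated. The peak caller (not given in the sources used here) is unknown. The notes name GRCh38 although the cells are mouse. All 35 members overlapped the gene of that symbol in RefSeq's GRCm38.p6, with 30 of them within 100 bp of it on at least 1 side, so coordinates are given on mouse GRCm38.

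Per the file headers, the deposited RNA table gives FPKM (fragments scaled by length and depth) and whole-number counts, with a column of each for every condition. Each column bears the library name of the sample of its condition that named neither input nor captured RNA. Whether input RNA was pooled under that name was not stated. Each deposited peak list holds 1 condition, with the authors' fold enrichment (a ratio of captured RNA over input) and log10 values of p and adjusted p. The authors' deposited differential tables give a log2 fold change, a p-value (under 0.05 throughout) and its adjusted value. Signs of the table deposited as sh-METTL3 over glucose were turned. Of the checked peaks 91.3%, 91.7% and 91.1% then shared their sign with the ratio of fold enrichments. Peak starts count from 0 in the files, and 1 was added. Apart from the check of signs and the member peaks set beside it, fold enrichments are described inside a list. The number of per-sample columns not used was 0.

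Members and gene lists were chosen with earlier results of these data known. Log2 ratios are of FPKM + 1 in genes averaging 1 FPKM or more, minus the median of all such genes unless stated. A gene was called at a ratio of at least 2-fold before that subtraction. No p-value of RNA was computed. Named members are the highest and lowest of each role group in each comparison, those called, those with a differential peak, those of highest and lowest level, the catalytic subunits and the strongest peaks of each list. Genes of partner lists were named by size of ratio, and members named beyond this were chosen after their values were seen. For 1 gene of the partner lists the values are not reported here. Promoters come from RefSeq (GRCm38.p6). The ratio, its interval and the count of calls were tested on simulated libraries. Python with pandas, numpy and scipy was used. Alternatives changed the pseudocount, the filter, the scaling, the peak threshold and the overlap.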

Additional observations from a re-analysis of the deposited data

How the results depend on the processing

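The members' median relative log2 ratio for glucose over control, -0.14 as reported, was -0.17 with a pseudocount of 0.1 FPKM, -0.01 with no filter on low values, -0.21 with median-of-ratios scaling, -0.21 relative to protein-coding genes, -0.18 without Psmc3ip, and 0.15 with quantile normalization, which turned its sign, as did the median of genes averaging 10 FPKM or more (0.08), a setting added after the data were seen. For sh-METTL3 over control, -0.28 as reported, the same settings gave -0.30, -0.18, -0.33, -0.34, -0.29, 0.02 and -0.04. For glucose over sh-METTL3, 0.04 as reported, the pseudocount gave 0.03, no filter 0.09, quantile normalization 0.03 and the genes of at least 10 FPKM 0.01, and the rest stayed at 0.04. Members at least 2-fold lower for sh-METTL3 over control, 1 as reported, numbered 2 with median-of-ratios scaling and 0 with quantile normalization; the other counts of called members were 0 under each setting. Median-of-ratios scaling moved the median gene by -0.18, -0.13 and -0.05 on the log2 scale in the 3 comparisons, and turned the split of all called genes to 599 higher and 743 lower for glucose over control, and 1031 and 1251 for sh-METTL3 over control. Members with a peak, 31, 21 and 21 in the glucose, sh-METTL3 and control lists, numbered 8, 3 and 4 where 4-fold enrichment and an adjusted p under 0.001 were required, and 32, 23 and 23 over every deposited peak. Differential member peaks, 25, 9 and 9, numbered 23, 8 and 8 at an adjusted p under 0.01. Of the single members, 26 to 35 of 35 kept the sign of their ratio for glucose over control under each setting, 28 to 34 for sh-METTL3 over control and 31 to 35 for glucose over sh-METTL3. The causes of these shifts were not tested. No paired analysis was possible because the RNA table holds 1 column per condition and the peak files pool replicates. Without replicates, no RNA difference could be set against the spread between samples.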
